A study of Mus musculus with 8 samples.

Results

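Injured sciatic nerve of c-Jun mutant mice was compared with injured nerve of control mice. The comparison was chosen by sample titles, as the 4 cut nerve arrays (2 of c-Jun mutants, 2 of controls) of the 8 arrays in the series, and covered 12094 of the 18194 genes on the array, those with a probe set bright enough to be tested. The sciatic nerve of adult mice was transected, and 7 days later a 10 mm length distal to the cut and the intact nerve of the opposite side were taken. The 4 groups were control cut, control uncut, mutant cut and mutant uncut nerve, with 2 arrays each, and each array held RNA of nerves pooled from 4 or 6 mice. The labels give the genotypes only as c-Jun KO and WT, where the design text speaks of mutants and controls. In the published study the mutation is a floxed Jun allele removed by Cre recombinase under a promoter active in Schwann cells, so the other cells of the nerve keep the gene. Uncut nerve came from the operated animals, not from naive ones. The sources used here do not state age, sex or strain. The labels call the samples Schwann cells, and in 1 field schwannoma cells, but the RNA was that of whole nerve segments.

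The gene Jun encodes c-Jun, a subunit of the AP-1 transcription factor, which binds DNA as a dimer of Jun and Fos or ATF family proteins. Schwann cells are the glia that ensheathe and myelinate peripheral axons. When axons degenerate after injury they lose their myelin programme, divide, recruit macrophages and turn into repair cells, which make trophic factors, surface proteins and matrix for regrowing axons. c-Jun is induced in Schwann cells by injury and is known as a regulator of this repair state.

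All values below are log2 array levels, and a difference is the mutant mean minus the control mean, so that 1 stands for 2-fold. Adjusted p-values are limma's, two-sided, with Benjamini-Hochberg adjustment over the 12094 genes, from 1 model of all 8 arrays, and a gene was called at an adjusted p under 0.05. With 2 arrays a group, p-values measure the spread between pools. Since each segment holds many cell types, fewer cells of a type and less RNA per cell cannot be told apart. Replicate arrays correlated with r of 0.984 to 0.989 over the genes tested, and arrays of opposite genotype but like injury with r of 0.977 to 0.987. The markers of the labelled tissue were present: Sox10, the defining transcription factor of Schwann cells, read 11.10 and 10.96 in control cut and 10.90 and 10.77 in mutant cut nerve. Milk protein transcripts set some arrays apart. Csn2, the gene of beta-casein, read 11.47 in control cut replicate 1, 7.03 in control cut replicate 2, 3.69 in mutant cut replicate 1 and 9.15 in mutant cut replicate 2. It read 3.50 and 4.14 in control uncut nerve and 13.01 and 10.33 in mutant uncut nerve. Results below are also given without control cut replicate 1 and mutant cut replicate 2, whose Csn2 level was the higher one of their group. They are called the milk protein arrays below, though control cut replicate 2 and both mutant uncut arrays also read above control uncut nerve. That fit leaves 1 array in each cut group, takes its spread from the uncut groups, and was chosen after the values were seen. It does not even out the signal, as the Csn2 difference was -2.83 over all cut arrays and -3.34 in that fit. A call kept in it therefore does not show that a gene is free of this signal. The part of this signal in the results was not tested.

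Jun itself was read first in every sample. On its brighter probe set the level was 11.88 and 11.96 in control cut nerve, 10.39 and 10.80 in mutant cut nerve, 9.58 and 9.70 in control uncut nerve and 9.62 and 9.59 in mutant uncut nerve. The mutant cut arrays lay below both control cut arrays and above all uncut arrays, which did not separate by genotype. The difference in cut nerve was -1.33 (95% interval -1.66 to -1.0, adjusted p = 0.00866). A second probe set read 11.40 and 11.64 in control cut and 10.12 and 10.54 in mutant cut nerve, a difference of -1.19. On this probe set too, mutant cut nerve lay between uncut and control cut nerve. The sources used here do not state whether either probe set lies in the deleted stretch, so the labels are checked only in part. Leaving out control cut replicate 1 raised its adjusted p to 0.0631 and leaving out control cut replicate 2 to 0.0573, past the threshold, whereas it was 0.0293 without both milk protein arrays.

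Of the 12094 genes, 86 (0.711%) were called lower in mutant cut nerve and 46 (0.380%) higher, 132 (1.09%) in all. The genes called lower had differences of -2.71 to -0.56 with a median of -0.98, and 42 of them differed at least 2-fold. The genes called higher had differences of 0.70 to 2.44 with a median of 1.02, and 25 differed at least 2-fold. Control and mutant cut arrays that do not overlap are no rarity, as 19.2% of all genes had both mutant arrays lower and 13.9% both higher. In uncut nerve 0 genes (0%) were called between the genotypes by limma (322 at an unadjusted p under 0.05, and 0 to 9 called under the other settings tried). How many genes are called rests on single arrays: without control cut replicate 1 the model called 5 lower and 8 higher, without control cut replicate 2 35 and 15, without mutant cut replicate 1 19 and 12, and without mutant cut replicate 2 43 and 41. Leaving out either control uncut array gave 41 lower and 16 higher, and leaving out both milk protein arrays gave 26 lower and 29 higher. A fit with fewer arrays also has less to estimate the spread from, and leaving out an uncut array changes no difference in cut nerve. Leaving out either uncut array of a genotype gave the same adjusted p in cut nerve, so the 8 fits are not 8 separate checks. Each of the 132 kept the sign of its difference in all 8 fits with 1 array left out, as did 5785 of all 12094 genes. This was fixed in advance for the 132, since their cut arrays did not overlap between genotypes. Only 11 kept their call in all 8: Rgs8, Rgs16, Aldh1a3 and Sema3e on the lower side, and Trpm3, Kcnj10, Lrrn3, Lrrtm4, Fabp7, Adam23 and Cdh1 on the higher side. Of the 132, 21 kept it in none. Where other probe sets of a called gene were bright enough to compare (58 genes), all of them had the sign of the gene in 57.

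**Figure D1:**
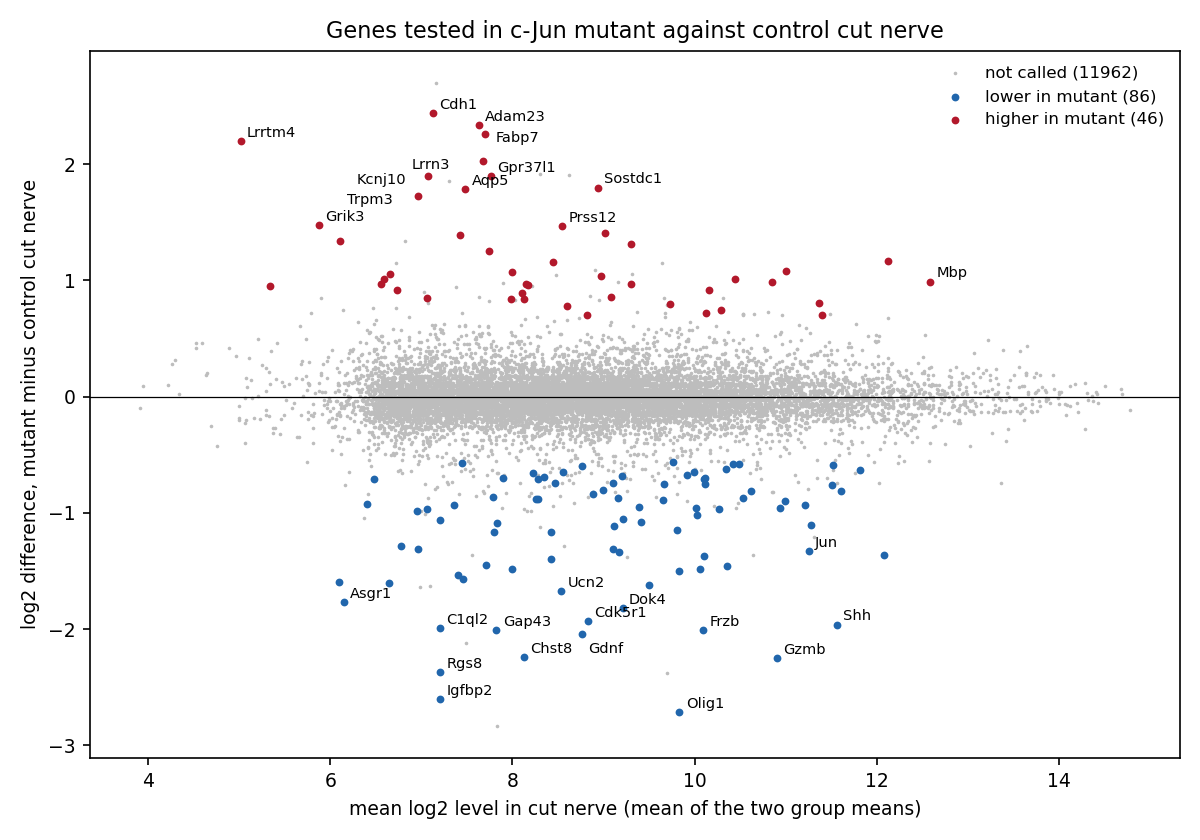
Each point is 1 of the 12094 genes tested; the horizontal axis is the mean log2 level of cut nerve and the vertical axis the log2 difference, mutant minus control cut nerve, with the 86 genes called lower in blue and the 46 called higher in red. Olig1 (-2.71) lies lowest and Cdh1 (2.44) highest among called genes, and most genes lie close to 0 at every level.

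The transcription factors among the lower genes were led by Olig1, a basic helix-loop-helix factor best known from the oligodendrocyte lineage. Its level was 11.46 and 10.91 in control cut nerve against 8.11 and 8.85 in mutant cut nerve, and it lay at 4.49 to 4.74 on the 4 uncut arrays, under the 25th percentile of the arrays. Both mutant cut arrays were thus far above uncut nerve and far below both control cut arrays (difference -2.71, 95% interval -3.32 to -2.10, adjusted p = 0.00668). Olig1 was the gene of lowest difference among all 132, and the only 1 of 24 tested transcription factors of the Schwann lineage that was called, where 23 did not pass (median 0.04). Sox10 (-0.20), Sox2 (-0.31), the myelin regulator Egr2 (0.13) and Pou3f1 (0.29) were among those not called. Tfap2a stood at -0.81 (adjusted p = 0.07) and the inhibitor Id4 at 0.85 (adjusted p = 0.0758). Among 24 AP-1 factors and immediate early genes 2 were lower, Jun and Fosl2, and 2 were higher, with a median of 0.06. Fosl2, a Fos family partner of c-Jun, was 11.90 and 11.73 in control cut and 11.24 and 11.20 in mutant cut nerve (difference -0.59, 95% interval -0.82 to -0.37, adjusted p = 0.0361). A dimmer probe set of Fosl2 stood at -0.22. Fos (0.10) and Junb (0.21) were not called, nor was Atf3, a stress-induced partner of c-Jun, at -0.79 with arrays at 11.76 and 11.53 against 10.99 and 10.71 (adjusted p = 0.642). The zinc finger factor Zeb1 was lower by -0.63 and Sox13 by -0.74 (adjusted p = 0.0342 and 0.0272), and another probe set of Zeb1 stood at 0.45. Of the 8 fits with 1 array left out, calls were kept, with the highest adjusted p given, for Olig1 in 7 (up to 0.0507 without control cut replicate 1), Fosl2 in 0 (up to 0.206 without control cut replicate 1), Zeb1 in 0 (up to 0.204 without mutant cut replicate 2) and Sox13 in 0 (up to 0.163 without control cut replicate 1). With both milk protein arrays left out the adjusted p was under 0.05 for Olig1 (0.0117) and not for Fosl2 (0.386), Zeb1 (0.371) and Sox13 (0.312).

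Because c-Jun acts through AP-1 sites, the promoter windows of the called genes were read for the letters TGACTCA on either strand. The windows are RefSeq's, build GRCm38.p6, 250 bases before to 50 after each gene's start, and 59 of the 86 genes called lower had one in the table. The letters were present in 9 of these 59 (15.3%), in 2 of 30 genes called higher (6.67%), in 4.87% of the 9730 genes tested that have a window and in 5.95% of all 27025 genes of the table. A related cyclic AMP response motif, GACGTCA on either strand, was present in 3 of 59 (5.08%) and 1 of 30 (3.33%), against 5.93% of the genes tested. Each motif was counted separately, and a window may hold both. No test was made, a match is only a description of the window, and the absence of a match says nothing about binding elsewhere. The 9 genes are Slitrk6, Igfbp2, Lif, Met, Gzmb, Asgr1, Tspan15, Rcan1 and Eml1, and the 2 called higher are Plekha4 and Tmprss5. The bases before the start are shown for 4 genes whose levels are described below, a synaptic adhesion protein, a growth factor binding protein, a cytokine and a growth factor receptor, so that the place of the match relative to the start can be seen. They run 5′ to 3′ on the gene's strand and end at the base before the start, with the match in capitals (a match on the opposite strand reads TGAGTCA).
Slitrk6, chr14:110755150-110755399, minus strand: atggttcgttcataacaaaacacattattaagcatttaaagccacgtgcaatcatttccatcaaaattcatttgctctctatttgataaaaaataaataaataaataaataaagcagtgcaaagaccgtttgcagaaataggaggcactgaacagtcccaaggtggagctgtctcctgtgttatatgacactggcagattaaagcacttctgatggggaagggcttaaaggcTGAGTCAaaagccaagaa
Igfbp2, chr1:72825137-72825386, plus strand: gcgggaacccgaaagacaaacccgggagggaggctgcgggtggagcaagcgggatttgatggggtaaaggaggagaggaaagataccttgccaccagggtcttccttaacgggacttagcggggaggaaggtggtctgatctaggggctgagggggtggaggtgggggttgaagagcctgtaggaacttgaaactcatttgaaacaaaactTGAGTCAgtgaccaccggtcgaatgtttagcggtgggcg
Met, chr6:17463707-17463956, plus strand: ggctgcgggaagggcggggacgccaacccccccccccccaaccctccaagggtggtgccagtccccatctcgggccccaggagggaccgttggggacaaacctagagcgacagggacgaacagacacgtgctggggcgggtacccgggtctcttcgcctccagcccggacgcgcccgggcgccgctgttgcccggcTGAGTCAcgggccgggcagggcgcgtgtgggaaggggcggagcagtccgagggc
Lif, chr11:4257318-4257567, plus strand: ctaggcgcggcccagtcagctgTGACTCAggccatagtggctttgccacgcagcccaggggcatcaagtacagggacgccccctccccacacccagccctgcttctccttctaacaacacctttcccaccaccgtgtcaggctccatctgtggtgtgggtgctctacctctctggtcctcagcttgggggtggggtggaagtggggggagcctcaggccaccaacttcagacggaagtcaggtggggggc
For the other 5 genes the match is shown with its flanks.
Gzmb, chr14:56262369-56262408, minus strand: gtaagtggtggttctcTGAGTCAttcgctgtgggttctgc
Tspan15, chr10:62231219-62231246, minus strand: gtgattgcggcgcgccTGAGTCAgtcca
Rcan1, chr16:92400165-92400204, minus strand: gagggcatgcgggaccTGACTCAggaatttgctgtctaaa
Eml1, chr12:108370932-108370971, plus strand: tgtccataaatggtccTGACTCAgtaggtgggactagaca
Asgr1, chr11:70053882-70053921, plus strand: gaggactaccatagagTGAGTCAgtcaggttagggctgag
Counted from the start site, the match began at -12 in Tspan15, -18 in Slitrk6, -39 in Igfbp2, -54 in Met and -58 in Gzmb, so 5 of the 9 lie close to the start. It began at -110 in Rcan1, -205 in Eml1, -226 in Asgr1 and -228 in Lif.

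Secreted trophic factors held the most lower members by count among the lists of roles, apart from the genes the published study names. Over all genes 0.711% were called lower, and of 17 markers of immature and denervated Schwann cells 4 were. The lists were drawn up with earlier results known, and the published study names Gdnf, Bdnf and Lif, so the count is no independent evidence. Of 24 tested trophic and growth factor ligands 6 were called lower, 0 higher and 18 did not pass, with a median of -0.13 against -0.01 over all genes. Gdnf, the ligand of the GFRA1 and RET receptor complex and a survival factor for motor neurons, was 9.97 and 9.59 in control cut and 7.48 and 8.00 in mutant cut nerve, and 4.40 to 4.74 in uncut nerve. All 4 cut arrays lay above the uncut ones, and the mutant arrays did not overlap with the controls (difference -2.04, 95% interval -2.53 to -1.55, adjusted p = 0.00812). The injury difference itself was 5.23 in control and 3.12 in mutant nerve. A pair of EGF receptor ligands was lower. Betacellulin, Btc, was 10.62 and 10.55 against 8.99 and 9.17 (difference -1.50, 95% interval -1.81 to -1.19, adjusted p = 0.00601). Tgfa was 8.12 and 8.36 against 6.60 and 6.75 in mutant cut nerve (difference -1.57, 95% interval -1.93 to -1.21, adjusted p = 0.0071), and it stood higher in uncut nerve of both genotypes, 8.94 to 9.34. A dimmer probe set of Tgfa stood at -0.05. Fgf5, a fibroblast growth factor, was 8.86 and 8.63 against 7.05 and 7.47 (difference -1.48, 95% interval -1.95 to -1.01, adjusted p = 0.0225). Across the 8 fits that each left out 1 array, calls were kept, with the highest adjusted p given, for Gdnf in 7 (up to 0.0631 without control cut replicate 1), Btc in 7 (up to 0.0507 without control cut replicate 1), Tgfa in 6 (up to 0.0542 without mutant cut replicate 1) and Fgf5 in 3 (up to 0.132 without control cut replicate 1). In the fit lacking both milk protein arrays the adjusted p was under 0.05 for Gdnf (0.031) and Tgfa (0.0473) and not for Btc (0.0531) and Fgf5 (0.101).

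Other ligands were lower as well, Bdnf and Lif from the list and Ndp and Ucn2 outside it. Bdnf, a neurotrophin that signals through TrkB and p75, was 6.95 and 6.72 in control cut and 6.08 and 6.17 in mutant cut nerve, where the mutant arrays lay within the range of uncut nerve, 6.03 to 6.22 (difference -0.71, 95% interval -0.97 to -0.45, adjusted p = 0.0336). Lif, a cytokine of the interleukin-6 family, was 8.02 and 7.61 against 6.73 and 7.04 (difference -0.93, 95% interval -1.30 to -0.55, adjusted p = 0.0491). Its receptors Lifr (0.08) and Il6st (-0.06) were not called, and the related cytokine Clcf1 stood at -0.66 (adjusted p = 0.186). Norrin, Ndp, a secreted ligand of the Frizzled-4 receptor, was 8.30 and 8.46 against 7.24 and 7.33 (difference -1.09, 95% interval -1.39 to -0.79, adjusted p = 0.0152). Urocortin 2, Ucn2, a peptide ligand of the corticotropin releasing factor receptors, was 9.25 and 9.49 against 7.81 and 7.59 (difference -1.67, 95% interval -2.06 to -1.27, adjusted p = 0.0077), with uncut levels 4.65 to 5.33. When single arrays were left out, over 8 fits, calls were kept, with the highest adjusted p given, for Bdnf in 0 (up to 0.189 without mutant cut replicate 1), Lif in 0 (up to 0.231 without mutant cut replicate 1), Ndp in 5 (up to 0.107 without mutant cut replicate 1) and Ucn2 in 7 (up to 0.0507 without control cut replicate 1). After removal of both milk protein arrays the adjusted p was not under 0.05 for Bdnf (0.258), Lif (0.113), Ndp (0.0955) and Ucn2 (0.0661). That fit called 2 of the 24 listed ligands.

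Of 27 tested receptors for these factors 2 were called lower, 0 higher and 25 did not pass (median -0.04). Over all genes 0.711% were called lower and 0.380% higher. Gfra2, the receptor for neurturin, was 8.80 and 8.60 against 7.87 and 7.77 (difference -0.88, 95% interval -1.13 to -0.62, adjusted p = 0.0161), while uncut levels were 8.71 to 9.16, and its other probe sets stood at -0.69 to -0.14. Met, the receptor of hepatocyte growth factor, was 11.91 and 11.86 against 11.09 and 11.16 (difference -0.76, 95% interval -0.98 to -0.55, adjusted p = 0.0155). The mutant Met arrays still lay above uncut nerve (9.75 to 9.92). Among receptors of the lower ligands, Gfra1 (-0.22), Ret (0.26) and Egfr (-0.04) were not called, nor was Erbb3 (0.20), a relative of Egfr. Ngfr, the p75 neurotrophin receptor, was 11.93 and 11.69 against 11.03 and 11.19, so its groups did not overlap, but its difference of -0.70 (95% interval -1.11 to -0.29) did not pass (adjusted p = 0.176). Of the 10 tested genes that the published study names as depending on c-Jun, 6 were called lower: Olig1, Shh, Gdnf, Gap43, Bdnf and Lif. That list was chosen on these samples, so its count is no independent evidence. The 4 that did not pass on their brightest probe set were Ngfr, Cdh2 (-0.36), L1cam (-0.12) and Ncam1 (0.22), and Artn was too dim to be tested. Other probe sets stood at 0.59 to 1.08 for Ncam1, at -0.96 and -0.69 for Ngfr and at -0.46 for Cdh2. With probe sets as units, limma's adjusted p was 0.0442 for a Ncam1 probe set (0.78) and 0.0438 for an Ngfr one (-0.69). L1cam changed sign without control cut replicate 1 (0.06) and without both milk protein arrays (0.13), and Ncam1 without control cut replicate 2 (-0.05). In the 8 fits without 1 array, calls were kept, with the highest adjusted p given, for Gfra2 in 5 (up to 0.0969 without control cut replicate 1) and Met in 5 (up to 0.112 without mutant cut replicate 1). Leaving out both milk protein arrays, the adjusted p was not under 0.05 for Gfra2 (0.196) and Met (0.153).

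Shh, the hedgehog ligand Sonic hedgehog, was 12.31 and 12.76 in control cut nerve and 10.33 and 10.83 in mutant cut nerve, against 8.76 to 9.70 in uncut nerve. Every cut array of either genotype lay above every uncut array, and the genotypes did not overlap in cut nerve (difference -1.96, 95% interval -2.61 to -1.30, adjusted p = 0.0247). It was the only 1 of 12 tested hedgehog pathway genes called. The receptor and target Ptch1 was 11.44 and 11.84 against 11.22 and 11.60 (-0.22), the target Gli1 stood at -0.08, Gli2 at -0.26 and Hhip at 0.12. The list had a median of -0.02. As single arrays were dropped, in 8 fits, Shh kept its call in 3, with an adjusted p of up to 0.141 without mutant cut replicate 1. Both milk protein arrays left out, it was 0.0715.

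Regulators of Wnt signalling went in both directions. Of 24 tested Wnt ligands, receptors and inhibitors 3 were lower, 1 was higher and 20 did not pass (median -0.08). Frzb, a secreted Wnt-binding inhibitor, was 11.15 and 11.04 in control cut nerve, 8.59 and 9.58 in mutant cut nerve and 10.86 to 11.25 in uncut nerve. Control cut nerve was thus at the uncut level, and mutant cut nerve lay below all 6 other arrays (difference -2.01, 95% interval -2.71 to -1.32, adjusted p = 0.0269). Wif1, another secreted Wnt inhibitor, was 9.84 and 10.06 against 8.88 and 8.87 and 3.46 to 4.00 in uncut nerve (difference -1.08, 95% interval -1.48 to -0.68, adjusted p = 0.0338). The receptor Fzd8 was 8.84 and 8.84 against 8.19 and 8.02 (difference -0.74, 95% interval -1.0 to -0.48, adjusted p = 0.0269). Dkk3, a secreted protein of the Dickkopf family, was the higher one, 8.74 and 8.57 against 9.61 and 9.42 (difference 0.86, 95% interval 0.55 to 1.16, adjusted p = 0.0278), with mutant cut nerve close to uncut nerve (9.59 to 9.91). Outside the list, the R-spondin receptor Lgr6 was lower by -1.45 and the destruction complex scaffold Apc by -0.62 (adjusted p = 0.0223 and 0.0404). Of the 8 fits with 1 array left out, calls were kept, with the highest adjusted p given, for Frzb in 3 (up to 0.155 without control cut replicate 1), Wif1 in 2 (up to 0.188 without control cut replicate 2), Fzd8 in 2 (up to 0.153 without mutant cut replicate 2), Dkk3 in 2 (up to 0.168 without mutant cut replicate 1), Lgr6 in 3 (up to 0.136 without mutant cut replicate 1) and Apc in 0 (up to 0.233 without mutant cut replicate 2). In the fit lacking both milk protein arrays the adjusted p was under 0.05 for Frzb (0.031) and not for Wif1 (0.213), Fzd8 (0.294), Dkk3 (0.12), Lgr6 (0.06) and Apc (0.232).

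Aldh1a2 and Aldh1a3, retinaldehyde dehydrogenases that carry out the last step of retinoic acid synthesis, were both lower. Aldh1a3 was 11.06 and 11.11 in control cut nerve and 9.59 and 9.67 in mutant cut nerve (difference -1.46, 95% interval -1.67 to -1.24, adjusted p = 0.00202). Aldh1a2 was 11.01 and 10.56 against 9.35 and 9.49 (difference -1.37, 95% interval -1.82 to -0.91, adjusted p = 0.0247). Uncut levels were 7.88 to 8.21 for Aldh1a3 and 7.05 to 7.56 for Aldh1a2, below every cut array. Of 20 tested retinoid enzymes, binding proteins and receptors, a family drawn up after the values were seen, these were the 2 called. The receptor and target gene Rarb stood at -0.56 (adjusted p = 0.0711) and the dehydrogenase Rdh10 at -0.56 (adjusted p = 0.177). Aldh1a3 kept its call in all 8 fits with 1 array left out. Across the 8 fits that each left out 1 array, Aldh1a2 kept its call in 5, with an adjusted p of up to 0.145 without mutant cut replicate 1. It was 0.183 without both milk protein arrays.

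Binding proteins and intracellular brakes of signalling were also among the lower genes. Igfbp2, which binds insulin-like growth factors, was 8.09 and 8.93 in control cut and 5.39 and 6.43 in mutant cut nerve, and 4.84 to 5.38 in uncut nerve. Mutant cut replicate 1 thus lay next to the uncut range (difference -2.60, 95% interval -3.49 to -1.70, adjusted p = 0.0269). All 6 tested binding proteins of this family had negative differences and only Igfbp2 passed: Igfbp3 was 11.64 and 11.01 against 9.99 and 9.94 (-1.36, adjusted p = 0.0573) and Igfbp5 stood at -0.74 (adjusted p = 0.0592). Rgs8, which speeds GTP hydrolysis by G protein alpha subunits, was 8.62 and 8.16 against 5.90 and 6.14 and 4.88 to 5.14 in uncut nerve (difference -2.37, 95% interval -2.76 to -1.99, adjusted p = 0.00227). Its relative Rgs16 was 10.83 and 10.77 against 9.21 and 9.43 (difference -1.48, 95% interval -1.74 to -1.22, adjusted p = 0.00337). Of 15 tested Rgs genes these 2 were called, and both kept their call in all 8 fits with 1 array left out and without both milk protein arrays (adjusted p = 0.0118 and 0.031). Dok4, an adaptor of receptor tyrosine kinases, was 10.11 and 10.13 against 7.86 and 8.74 (difference -1.82, 95% interval -2.40 to -1.25, adjusted p = 0.0212). When single arrays were left out, over 8 fits, calls were kept, with the highest adjusted p given, for Igfbp2 in 3 (up to 0.134 without control cut replicate 2) and Dok4 in 4 (up to 0.116 without control cut replicate 2). Leaving out both milk protein arrays, the adjusted p was under 0.05 for Igfbp2 (0.0158) and Dok4 (0.0118).

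**Figure D2:**
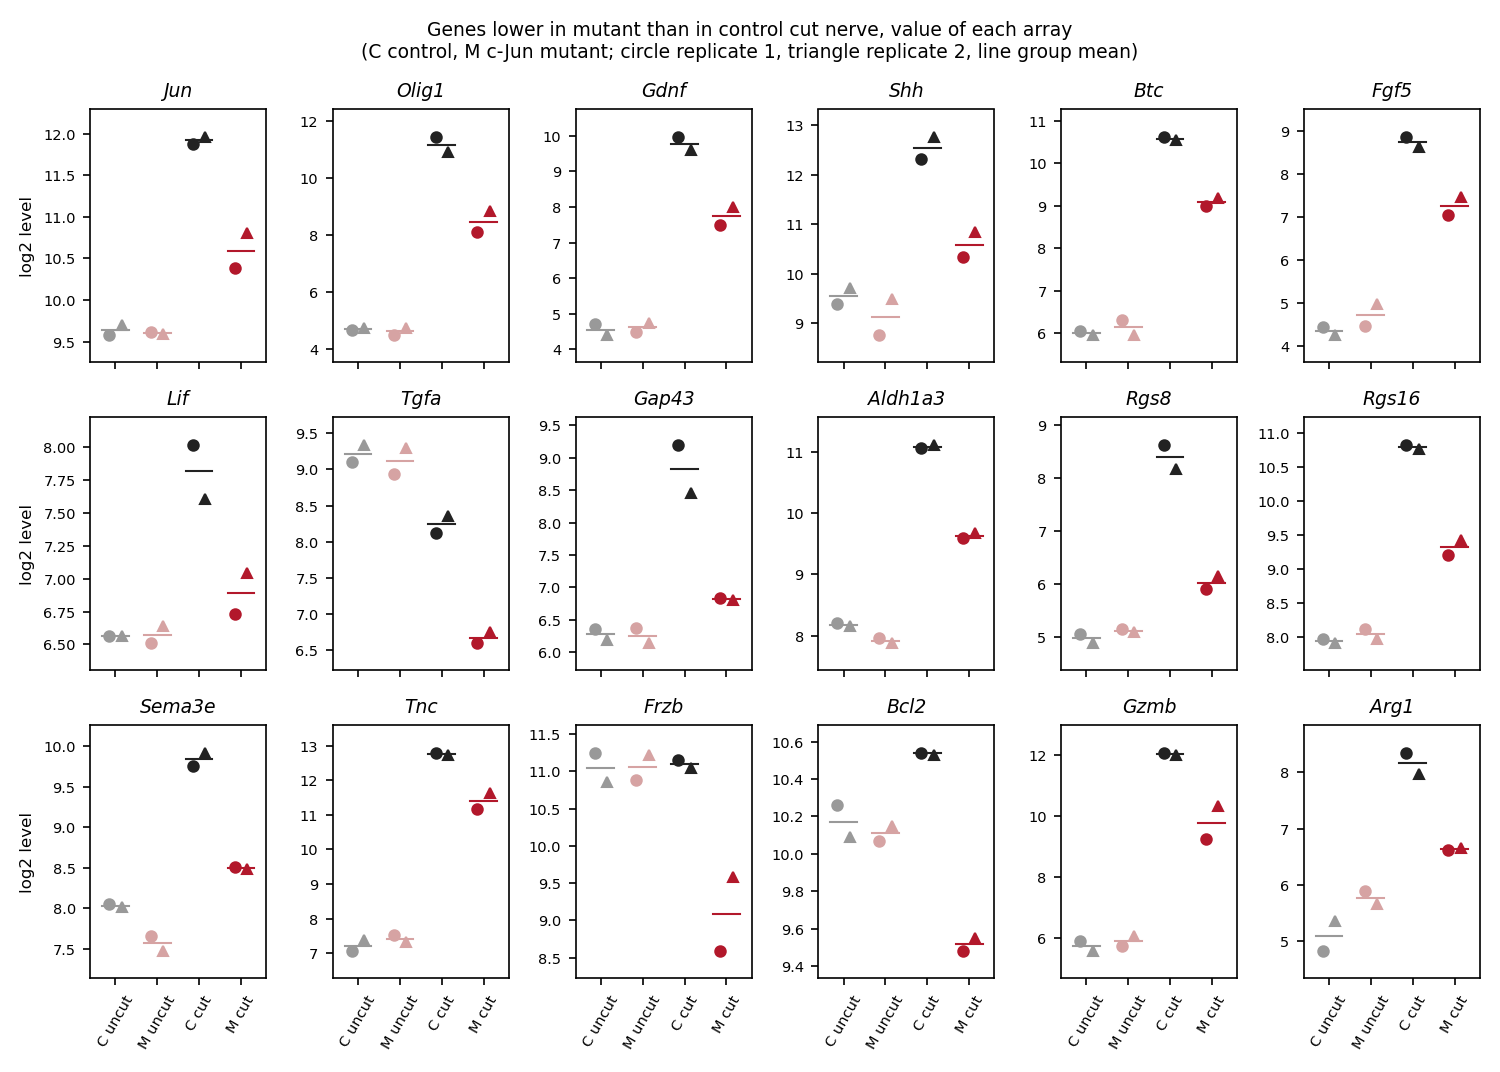
Log2 level on each of the 8 arrays for 18 genes called lower in mutant cut nerve, by group (C control, M mutant; circle replicate 1, triangle replicate 2, line group mean). In each panel both mutant cut arrays lie below both control cut arrays; Frzb and Tgfa differ from the rest in that control cut nerve was not above uncut nerve.

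Genes of the growing neuron and its cytoskeleton formed the next group. Of 22 tested, 4 were lower, 1 was higher and 17 did not pass (median -0.22). Gap43, a growth cone protein that denervated Schwann cells also make, was 9.20 and 8.46 in control cut nerve and 6.84 and 6.80 in mutant cut nerve, where uncut levels were 6.14 to 6.37 (difference -2.01, 95% interval -2.52 to -1.49, adjusted p = 0.0104). Dpysl3, a collapsin response mediator protein, was 11.59 and 11.24 against 10.57 and 10.34 (difference -0.96, 95% interval -1.29 to -0.62, adjusted p = 0.0272). Uchl1, a deubiquitinating enzyme abundant in neurons, was 10.26 and 10.50 against 9.38 and 9.09 (difference -1.15, 95% interval -1.51 to -0.79, adjusted p = 0.021). The intermediate filament gene Nes was 11.56 and 11.33 against 10.51 and 10.58 (difference -0.90, 95% interval -1.20 to -0.60, adjusted p = 0.0236). Syt4, a synaptotagmin of vesicles, was higher in the mutant, 10.52 and 10.41 against 11.37 and 11.70 (difference 1.08, 95% interval 0.78 to 1.37, adjusted p = 0.0149). Outside the list, Cdk5r1, the p35 activator of the kinase Cdk5, was 10.00 and 9.59 against 7.65 and 8.08 (difference -1.93, 95% interval -2.36 to -1.50, adjusted p = 0.00668), with a second probe set at -2.73. Syt13, another synaptotagmin, was 7.05 and 6.73 against 5.16 and 5.43, where mutant cut nerve lay near uncut nerve, 4.98 to 5.20 (difference -1.59, 95% interval -1.94 to -1.24, adjusted p = 0.00668). In the 8 fits without 1 array, calls were kept, with the highest adjusted p given, for Gap43 in 7 (up to 0.0667 without mutant cut replicate 1), Dpysl3 in 3 (up to 0.153 without mutant cut replicate 2), Uchl1 in 4 (up to 0.116 without control cut replicate 2), Nes in 2 (up to 0.143 without mutant cut replicate 1), Syt4 in 6 (up to 0.0859 without control cut replicate 2), Cdk5r1 in 7 (up to 0.0507 without control cut replicate 1) and Syt13 in 7 (up to 0.0507 without control cut replicate 1). With both milk protein arrays left out the adjusted p was under 0.05 for Gap43 (0.0408), Cdk5r1 (0.0223) and Syt13 (0.0356) and not for Dpysl3 (0.261), Uchl1 (0.109), Nes (0.223) and Syt4 (0.0843).

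Adhesion molecules and synapse organisers were called in both directions, 2 lower and 5 higher of 33 tested, with a median of 0.12. Slitrk6, a leucine-rich repeat protein of synapses and neurites whose promoter is shown above, was 7.18 and 7.72 in control cut and 5.43 and 6.27 in mutant cut nerve (difference -1.60, 95% interval -2.24 to -0.96, adjusted p = 0.0458). Nrcam, an immunoglobulin family adhesion molecule that takes part in building nodes of Ranvier, was 10.66 and 10.83 against 9.69 and 9.87 (difference -0.97, 95% interval -1.33 to -0.61, adjusted p = 0.0325). C1ql2, a secreted synapse organiser outside the list, was 8.19 and 8.22 against 5.96 and 6.46 (difference -1.99, 95% interval -2.42 to -1.56, adjusted p = 0.00668). Of 40 axon guidance ligands and receptors 1 was called. This was Sema3e, a semaphorin that binds plexin D1, at 9.76 and 9.92 against 8.51 and 8.48 (difference -1.34, 95% interval -1.59 to -1.09, adjusted p = 0.00399). Sema3e kept its call in all 8 fits with 1 array left out, and its difference in uncut nerve, -0.46, had the same sign. Epha5 stood at -0.84 (adjusted p = 0.0763) and was not called. As single arrays were dropped, in 8 fits, calls were kept, with the highest adjusted p given, for Slitrk6 in 1 (up to 0.217 without control cut replicate 2), Nrcam in 2 (up to 0.182 without mutant cut replicate 1) and C1ql2 in 7 (up to 0.0507 without control cut replicate 1). In the fit lacking both milk protein arrays the adjusted p was under 0.05 for Slitrk6 (0.0118) and C1ql2 (0.0282) and not for Nrcam (0.165).

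In the matrix, 3 of 45 tested glycoproteins, laminins and proteoglycans were lower and 0 higher (median -0.06). Tnc, the gene of tenascin-C, a glycoprotein of injured nerve, was 12.80 and 12.73 in control cut and 11.18 and 11.63 in mutant cut nerve, with 7.06 to 7.51 in uncut nerve (difference -1.36, 95% interval -1.75 to -0.96, adjusted p = 0.0163). The injury difference was 5.55 in control and 3.99 in mutant nerve. Vcan, the proteoglycan versican, was 10.50 and 10.42 against 9.80 and 9.72 (difference -0.70, 95% interval -0.95 to -0.46, adjusted p = 0.0269). Its other probe sets stood at -0.63 and -0.39. The heparan sulphate proteoglycan Gpc1 was 11.99 and 11.66 against 10.50 and 10.95 (difference -1.10, 95% interval -1.50 to -0.69, adjusted p = 0.0325). Of 26 tested collagens 0 were called, and the lowest was Col18a1 at -0.74 (adjusted p = 0.07). Of 26 matrix proteases and inhibitors 4 were lower and 0 higher (median -0.22): Mmp17 at -1.31, Adamts5 at -0.96, the tissue plasminogen activator Plat at -0.87 and Adamts1 at -0.58. Plat was 10.85 and 11.10 against 10.08 and 10.12 (adjusted p = 0.0163). Adamts1 was 10.79 and 10.78 in control cut, 10.17 and 10.23 in mutant cut, 9.61 and 9.68 in control uncut and 10.17 and 10.23 in mutant uncut nerve, so that the genotype difference had opposite signs in cut and uncut nerve (adjusted p = 0.0307 in cut nerve and 0.399 in uncut nerve). Of the 8 fits with 1 array left out, calls were kept, with the highest adjusted p given, for Tnc in 5 (up to 0.106 without control cut replicate 1), Vcan in 2 (up to 0.162 without control cut replicate 1), Gpc1 in 1 (up to 0.19 without control cut replicate 1), Mmp17 in 1 (up to 0.14 without mutant cut replicate 1), Adamts5 in 3 (up to 0.131 without control cut replicate 2), Plat in 4 (up to 0.112 without mutant cut replicate 1) and Adamts1 in 0 (up to 0.182 without mutant cut replicate 1). After removal of both milk protein arrays the adjusted p was not under 0.05 for Tnc (0.054), Vcan (0.312), Gpc1 (0.0649), Mmp17 (0.0909), Adamts5 (0.0558), Plat (0.0775) and Adamts1 (0.265). That fit called 0 members of either list.

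Several lower genes encode enzymes and surface proteins outside these lists. Chst8, a sulphotransferase that adds sulphate to N-acetylgalactosamine, was 9.41 and 9.09 in control cut and 6.81 and 7.22 in mutant cut nerve (difference -2.24, 95% interval -2.78 to -1.69, adjusted p = 0.00859). Duox1, which makes hydrogen peroxide, was 7.57 and 7.32 against 6.40 and 6.53 (difference -0.98, 95% interval -1.34 to -0.62, adjusted p = 0.0314), and its maturation factor Duoxa1 was 10.24 and 10.37 against 8.39 and 8.97 (difference -1.62, 95% interval -2.08 to -1.16, adjusted p = 0.0155). Gria1, a subunit of AMPA glutamate receptors, was 9.36 and 8.87 against 7.87 and 7.57 (difference -1.40, 95% interval -1.96 to -0.84, adjusted p = 0.0465), and the uncut arrays lay at 4.07 to 4.71. The potassium channel gene Kcnd3 was 7.93 and 7.54 against 6.68 and 6.67 (difference -1.06, 95% interval -1.36 to -0.75, adjusted p = 0.0161). Asgr1, a subunit of the asialoglycoprotein receptor, was 7.15 and 6.92 against 5.34 and 5.20 (difference -1.77, 95% interval -2.26 to -1.27, adjusted p = 0.0155). Across the 8 fits that each left out 1 array, calls were kept, with the highest adjusted p given, for Chst8 in 6 (up to 0.073 without control cut replicate 1), Duox1 in 2 (up to 0.19 without control cut replicate 1), Duoxa1 in 6 (up to 0.0899 without control cut replicate 2), Gria1 in 2 (up to 0.245 without control cut replicate 1), Kcnd3 in 5 (up to 0.109 without mutant cut replicate 1) and Asgr1 in 4 (up to 0.0982 without control cut replicate 1). Leaving out both milk protein arrays, the adjusted p was under 0.05 for Duoxa1 (0.031) and not for Chst8 (0.06), Duox1 (0.258), Gria1 (0.399), Kcnd3 (0.103) and Asgr1 (0.183).

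Bcl2, the inhibitor of mitochondrial apoptosis, was the 1 called of 22 tested apoptosis regulators. It was 10.54 and 10.53 in control cut, 9.48 and 9.55 in mutant cut and 10.07 to 10.26 in uncut nerve, so that mutant cut nerve lay below all other arrays (difference -1.02, 95% interval -1.25 to -0.79, adjusted p = 0.00683), and its 4 other probe sets stood at -0.93 to -0.42. When single arrays were left out, over 8 fits, Bcl2 kept its call in 6, with an adjusted p of up to 0.0569 without control cut replicate 1. It was 0.0843 without both milk protein arrays.

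Among the lists of immune cell markers Gzmb and Arg1 were called, both lower. Over all genes 1.09% were called, so few calls are usual for lists of this size. Outside these lists, the killer cell lectin-like receptor gene Klrb1a was called higher. It was 6.14 and 6.12 in control cut and 7.30 and 7.08 in mutant cut nerve, with uncut nerve at 8.00 to 8.21 (difference 1.06, 95% interval 0.82 to 1.30, adjusted p = 0.00668). Gzmb, the granule protease of cytotoxic lymphocytes, was 12.07 and 12.00 in control cut and 9.24 and 10.33 in mutant cut nerve, against 5.57 to 6.07 in uncut nerve (difference -2.25, 95% interval -2.99 to -1.51, adjusted p = 0.0236). It was the 1 called of 7 tested T, B and natural killer cell markers (median -0.10). Klrd1 was 7.25 and 7.36 against 7.34 and 7.08, Gzma 6.93 and 7.34 against 7.47 and 6.82, Nkg7 6.44 and 6.79 against 6.56 and 6.67, and Cd3e 7.01 and 7.09 against 7.00 and 6.88. The summed linear signal of these 7 markers was 5334 to 6465 in control cut and 2421 to 2501 in mutant cut nerve. Gzmb makes up most of the control sum, so the lower mutant sum does not describe the other markers. Ighm, the heavy chain gene of immunoglobulin M, was 10.56 and 8.94 against 10.19 and 8.94, so that replicate 1 was high and replicate 2 low in both genotypes (-0.18, adjusted p = 0.983). Without both milk protein arrays, which leaves control replicate 2 against mutant replicate 1, Ighm was called higher, by 1.25 (adjusted p = 0.0426). Arg1, an arginase of alternatively activated macrophages, was 8.35 and 7.98 against 6.61 and 6.66 (difference -1.53, 95% interval -1.99 to -1.07, adjusted p = 0.0187) and the 1 called of 29 tested macrophage markers (median -0.05). Chil3, which has been used as a marker of the same macrophage state, was 10.02 and 7.08 against 6.64 and 6.23 and did not pass (-2.12, adjusted p = 0.491), with control cut replicate 1 well above the other 3 cut arrays. Adgre1 (-0.01), Cd68 (0.06), Mpeg1 (0.08) and Mrc1 (-0.19) were not called, and the summed macrophage signal was 104586 to 111080 in control cut and 98511 to 108330 in mutant cut nerve, which overlap. In the 8 fits without 1 array, calls were kept, with the highest adjusted p given, for Gzmb in 4 (up to 0.132 without control cut replicate 1) and Arg1 in 5 (up to 0.112 without mutant cut replicate 1). In the fit lacking both milk protein arrays the adjusted p was under 0.05 for Gzmb (0.0211) and not for Arg1 (0.183).

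The genes higher in mutant cut nerve were led by Cdh1, E-cadherin, which forms junctions between the membrane layers of a myelinating Schwann cell. It was 6.23 and 5.58 in control cut and 8.43 and 8.27 in mutant cut nerve, and 11.34 to 11.65 in uncut nerve (difference 2.44, 95% interval 1.98 to 2.90, adjusted p = 0.00399). Mutant cut nerve thus lay between control cut and uncut nerve, and Cdh1 kept its call in all 8 fits with 1 array left out. It belongs to the 27 tested myelin sheath genes, of which 3 were called higher, 0 lower and 24 did not pass (median 0.16). Mbp, myelin basic protein, was 11.96 and 12.23 against 13.23 and 12.94 (difference 0.99, 95% interval 0.68 to 1.30, adjusted p = 0.0212), and its 7 other probe sets stood at 0.05 to 1.34. Gjb1, the gap junction protein connexin 32 of non-compact myelin, was 7.66 and 7.66 against 8.61 and 8.48 (difference 0.89, 95% interval 0.63 to 1.14, adjusted p = 0.016). Both lay well below uncut nerve in either genotype (14.43 to 14.50 for Mbp and 9.68 to 9.91 for Gjb1). Mal, a myelin proteolipid, was 9.31 and 8.83 against 10.66 and 9.78 (1.15, adjusted p = 0.149) and did not pass, nor did Pmp22 (0.52). Ncmap, 6.21 and 6.08 against 6.46 and 5.95, and Drp2, 7.14 and 7.42 against 7.40 and 6.99, overlapped between genotypes. As single arrays were dropped, in 8 fits, calls were kept, with the highest adjusted p given, for Mbp in 4 (up to 0.116 without mutant cut replicate 1) and Gjb1 in 5 (up to 0.112 without mutant cut replicate 1). After removal of both milk protein arrays the adjusted p was not under 0.05 for Mbp (0.071) and Gjb1 (0.12). That fit called 2 of the myelin genes higher, Cdh1 and Mal (Mal at 1.84, adjusted p = 0.0203).

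**Figure D3:**
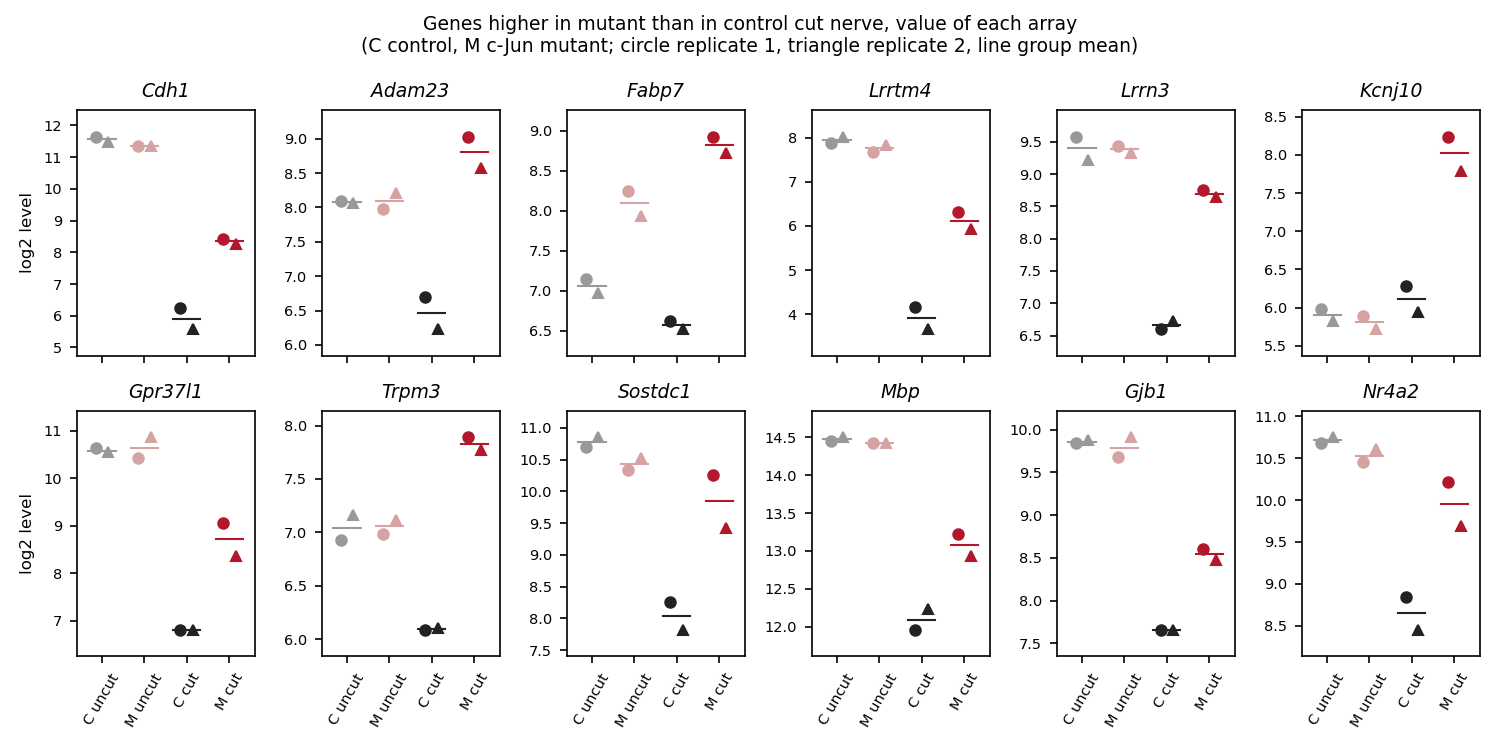
Log2 level on each of the 8 arrays for 12 genes called higher in mutant cut nerve, by group (C control, M mutant; circle replicate 1, triangle replicate 2, line group mean). Cdh1, Lrrtm4, Lrrn3, Gpr37l1, Sostdc1, Mbp, Gjb1 and Nr4a2 lie between control cut and uncut nerve in the mutant, whereas Adam23, Fabp7, Kcnj10 and Trpm3 lie above all other groups.

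Some of the other higher genes act in adhesion and synapse organisation. Adam23, a catalytically inactive ADAM protein that binds LGI proteins, was 6.69 and 6.23 in control cut and 9.03 and 8.57 in mutant cut nerve and 7.98 to 8.21 in uncut nerve, so that mutant cut nerve lay above all other arrays (difference 2.34, 95% interval 1.88 to 2.80, adjusted p = 0.00483). Its ligands Lgi1 (1.15, adjusted p = 0.178) and Lgi4 (0.79, adjusted p = 0.212) and the related Adam22 (-0.17) did not pass, though Lgi1 did without both milk protein arrays (1.86, adjusted p = 0.0408). Lrrtm4, a leucine-rich repeat synapse organiser, was 4.17 and 3.66 against 6.31 and 5.93 (difference 2.20, 95% interval 1.76 to 2.65, adjusted p = 0.00571), with a control cut mean under the 25th percentile of the arrays. Lrrn3, a leucine-rich repeat neuronal protein, was 6.60 and 6.72 against 8.75 and 8.64 (difference 2.03, 95% interval 1.72 to 2.35, adjusted p = 0.00202). Adam23, Lrrtm4 and Lrrn3 kept their calls in all 8 fits with 1 array left out. Chl1, a relative of the adhesion molecule L1, was 10.27 and 10.45 against 11.53 and 11.17 (difference 0.99, 95% interval 0.65 to 1.32, adjusted p = 0.0247). Megf10, an engulfment receptor of glia, was 9.90 and 9.98 against 10.94 and 10.96 (difference 1.01, 95% interval 0.77 to 1.25, adjusted p = 0.00812), both above uncut nerve (7.67 to 7.89). Igsf11, an immunoglobulin family adhesion molecule, was 7.80 and 7.94 against 9.19 and 8.87 (difference 1.16, 95% interval 0.86 to 1.45, adjusted p = 0.01), and Flrt3 stood at 0.73 without passing (adjusted p = 0.0594). Of the 8 fits with 1 array left out, calls were kept, with the highest adjusted p given, for Chl1 in 3 (up to 0.152 without control cut replicate 1), Megf10 in 6 (up to 0.0699 without control cut replicate 1) and Igsf11 in 7 (up to 0.0767 without control cut replicate 1). Leaving out both milk protein arrays, the adjusted p was under 0.05 for Igsf11 (0.0426) and not for Chl1 (0.0791) and Megf10 (0.114).

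Fabp7, the brain lipid binding protein of immature glia, was 6.62 and 6.52 in control cut, 8.93 and 8.73 in mutant cut, 7.15 and 6.97 in control uncut and 8.25 and 7.94 in mutant uncut nerve. The mutant arrays lay above the control arrays in both injury states. In cut nerve the difference was 2.26 (95% interval 1.94 to 2.58, adjusted p = 0.00202), and in uncut nerve it was 1.04 without a call (adjusted p = 0.257). Aqp5, a water channel, had the same layout, with 6.77 and 6.40 against 8.34 and 8.41 in cut nerve (difference 1.79, 95% interval 1.13 to 2.44, adjusted p = 0.0319) and 5.56 and 5.94 against 6.51 and 7.41 in uncut nerve (1.21, adjusted p = 1). Fabp7 kept its call in all 8 fits with 1 array left out. Of 17 tested markers of immature and denervated Schwann cells 4 were lower (Olig1, Shh, Gap43 and Tnc) and 2 higher (Fabp7 and Ednrb), with a median of -0.12. Across the 8 fits that each left out 1 array, Aqp5 kept its call in 2, with an adjusted p of up to 0.181 without control cut replicate 2. Both milk protein arrays left out, it was 0.207.

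Ion channels and transporters held 4 higher members and 1 lower, Gria1, among 29 tested (median 0.06). Kcnj10, the inwardly rectifying potassium channel Kir4.1 of glia, was 6.29 and 5.95 in control cut and 8.24 and 7.79 in mutant cut nerve, where control cut nerve lay near uncut nerve, 5.72 to 5.98 (difference 1.90, 95% interval 1.48 to 2.31, adjusted p = 0.00668). Trpm3, a cation channel, was 6.09 and 6.11 against 7.89 and 7.77 with 6.93 to 7.16 in uncut nerve (difference 1.73, 95% interval 1.47 to 1.99, adjusted p = 0.00202). Control cut nerve was thus below and mutant cut nerve above the uncut level. Kcnj10 and Trpm3 kept their calls in all 8 fits with 1 array left out. Grik3, a kainate receptor subunit, was 5.08 and 5.21 against 6.90 and 6.34 (difference 1.48, 95% interval 1.0 to 1.95, adjusted p = 0.023), but without the filter on low values another probe set took its place and stood at -0.07. Grik2 stood at 1.34 (adjusted p = 0.0584), and passed without both milk protein arrays (adjusted p = 0.0426). The fourth called member was Gjb1. Outside the list, the sodium channel of nodes Scn8a was 4.78 and 4.95 against 5.79 and 5.84 (difference 0.95, 95% interval 0.60 to 1.30, adjusted p = 0.0314), from a control cut level under the 25th percentile, and the sodium-potassium-chloride cotransporter Slc12a2 was 11.00 and 10.91 against 11.85 and 11.68 (difference 0.81, 95% interval 0.56 to 1.07, adjusted p = 0.0212). When single arrays were left out, over 8 fits, calls were kept, with the highest adjusted p given, for Grik3 in 3 (up to 0.132 without control cut replicate 1), Scn8a in 2 (up to 0.19 without control cut replicate 1) and Slc12a2 in 3 (up to 0.136 without mutant cut replicate 1). In the fit lacking both milk protein arrays the adjusted p was not under 0.05 for Grik3 (0.0615), Scn8a (0.323) and Slc12a2 (0.109).

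Of 23 tested G protein coupled receptors and peptide ligands 2 were higher and 0 lower (median 0.00). Gpr37l1, an orphan receptor of glia, was 6.81 and 6.81 in control cut and 9.05 and 8.36 in mutant cut nerve, both below uncut nerve at 10.42 to 10.86 (difference 1.90, 95% interval 1.37 to 2.43, adjusted p = 0.0155). Ednrb, the endothelin B receptor, was 9.70 and 9.69 against 10.78 and 10.45 (difference 0.92, 95% interval 0.60 to 1.25, adjusted p = 0.0272), with mutant cut nerve above uncut nerve (9.37 to 9.58). Among the regulators of transcription, the orphan nuclear receptor Nr4a2 was 8.84 and 8.45 against 10.22 and 9.69 (difference 1.31, 95% interval 0.85 to 1.76, adjusted p = 0.0269), and Nr4a1 was 9.93 and 9.91 against 10.65 and 10.70 (difference 0.75, 95% interval 0.48 to 1.02, adjusted p = 0.0307). Both stayed below uncut nerve in the mutant (10.45 to 10.75 and 11.03 to 11.47), and the third family member Nr4a3 stood at 0.01. Arnt2, a basic helix-loop-helix factor, was 7.35 and 6.89 against 8.51 and 8.22 (difference 1.25, 95% interval 0.81 to 1.68, adjusted p = 0.0272), and Tbx2, a T-box factor, was 6.04 and 6.09 against 7.07 and 7.01 (difference 0.97, 95% interval 0.57 to 1.37, adjusted p = 0.0499). In the 8 fits without 1 array, calls were kept, with the highest adjusted p given, for Gpr37l1 in 6 (up to 0.0917 without control cut replicate 1), Ednrb in 3 (up to 0.147 without control cut replicate 1), Nr4a2 in 1 (up to 0.143 without control cut replicate 2), Nr4a1 in 2 (up to 0.164 without mutant cut replicate 2), Arnt2 in 2 (up to 0.162 without mutant cut replicate 1) and Tbx2 in 2 (up to 0.252 without control cut replicate 1). After removal of both milk protein arrays the adjusted p was under 0.05 for Gpr37l1 (0.031), Nr4a2 (0.0223) and Arnt2 (0.0473) and not for Ednrb (0.101), Nr4a1 (0.294) and Tbx2 (0.337).

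Sostdc1, a secreted antagonist of BMP and Wnt signalling, was the 1 called of 23 tested genes of the TGF-beta, activin and BMP family. It was 8.26 and 7.82 in control cut, 10.26 and 9.42 in mutant cut and 10.34 to 10.85 in uncut nerve (difference 1.80, 95% interval 1.19 to 2.41, adjusted p = 0.0259). Prss12, neurotrypsin, a protease that cleaves agrin, was 7.95 and 7.66 against 9.53 and 9.03 (difference 1.47, 95% interval 1.0 to 1.95, adjusted p = 0.0227). Plekha4, a phosphoinositide-binding protein, was 8.39 and 8.23 against 10.02 and 9.42 with uncut nerve at 12.06 to 12.48 (difference 1.41, 95% interval 0.92 to 1.90, adjusted p = 0.0269). Its other probe sets stood at 0.83 and 0.69 and did not pass with probe sets as units. In Sostdc1, Prss12 and Plekha4 the mutant cut arrays lay between control cut and uncut nerve. As single arrays were dropped, in 8 fits, calls were kept, with the highest adjusted p given, for Sostdc1 in 3 (up to 0.143 without control cut replicate 2), Prss12 in 3 (up to 0.129 without control cut replicate 2) and Plekha4 in 3 (up to 0.154 without control cut replicate 2). Leaving out both milk protein arrays, the adjusted p was under 0.05 for Sostdc1 (0.0118), Prss12 (0.0459) and Plekha4 (0.0467).

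The other genes among the 30 lowest and the 30 highest belong to none of the lists. Celf4, a neuronal RNA-binding protein that regulates splicing and translation, was 7.67 and 7.57 against 6.25 and 6.37, with mutant cut nerve within the range of uncut nerve, 5.90 to 6.52 (difference -1.31, 95% interval -1.75 to -0.87, adjusted p = 0.0247), and its other probe set stood at -2.19. Lrrc75b, a leucine-rich repeat protein, was 5.63 and 5.24 against 6.98 and 6.57 (difference 1.34, 95% interval 0.89 to 1.79, adjusted p = 0.0247). Gas2l3, which links actin and microtubules, was 11.31 and 11.75 against 12.81 and 12.60 (difference 1.17, 95% interval 0.78 to 1.57, adjusted p = 0.0247). Egfl8, an EGF-like domain protein, was 8.49 and 8.41 against 9.71 and 9.27 (difference 1.04, 95% interval 0.71 to 1.38, adjusted p = 0.0227). In these higher genes mutant cut nerve lay between control cut and uncut nerve, which was at 8.69 to 9.04 for Lrrc75b, 12.99 to 13.33 for Gas2l3 and 10.30 to 10.43 for Egfl8. Svip, an inhibitor of endoplasmic reticulum associated degradation, stood at 0.97 (adjusted p = 0.0212) and Tex15, a germ cell gene of meiosis, at 1.01 (adjusted p = 0.0212), with the same layout. Acot1, an acyl-CoA thioesterase, was 7.66 and 7.25 against 8.67 and 8.39 (difference 1.07, 95% interval 0.71 to 1.44, adjusted p = 0.0247), and Crym, the thyroid hormone binding protein mu-crystallin, was 7.80 and 7.53 against 8.84 and 8.43 (difference 0.97, 95% interval 0.60 to 1.34, adjusted p = 0.0371). For both, mutant cut nerve lay above uncut nerve, 7.96 to 8.21 for Acot1 and 4.86 to 5.08 for Crym. Of the 8 fits with 1 array left out, calls were kept, with the highest adjusted p given, for Celf4 in 4 (up to 0.147 without control cut replicate 1), Lrrc75b in 3 (up to 0.139 without mutant cut replicate 1), Gas2l3 in 3 (up to 0.145 without mutant cut replicate 1), Egfl8 in 3 (up to 0.127 without control cut replicate 2), Svip in 3 (up to 0.116 without control cut replicate 2), Tex15 in 3 (up to 0.123 without mutant cut replicate 1), Acot1 in 3 (up to 0.145 without mutant cut replicate 1) and Crym in 1 (up to 0.195 without control cut replicate 2). With both milk protein arrays left out the adjusted p was under 0.05 for Lrrc75b (0.043), Egfl8 (0.0404), Svip (0.0467), Tex15 (0.0459), Acot1 (0.0351) and Crym (0.0473) and not for Celf4 (0.223) and Gas2l3 (0.116).

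Lists of larger programmes of the injured nerve held 0 called genes between the genotypes. Over all genes 1.09% were called, so 0 is usual for lists of this size and says little about these programmes. Of 38 tested genes of DNA replication and mitosis 0 were called, and all 38 had positive differences of 0.01 to 0.71 (median 0.26 against -0.01 over all genes). Top2a was 9.93 and 9.61 against 10.23 and 10.12 (0.41, 95% interval 0.12 to 0.70, adjusted p = 0.319), and Rrm2, the highest of the list, was 10.17 and 10.19 against 10.84 and 10.93 (0.71, adjusted p = 0.319). Mki67 overlapped, at 10.85 and 10.33 against 10.90 and 10.79. Of 32 genes of cholesterol and fatty acid synthesis 0 were called (median 0.00), with Hmgcs1 at 0.02 (95% interval -0.33 to 0.37). Likewise 0 were called of 20 G1 cyclins and CDK inhibitors, 35 autophagy and lysosome genes, 16 Notch pathway genes, 27 cytokines and chemokines, 22 interferon response genes, 15 complement genes and 35 genes of glycolysis, hypoxia and stress. Over all 12094 genes limma called 132 by the same rule and 1041 had an unadjusted p under 0.05. A p that misses the threshold does not show that a level was the same, and some 95% intervals are wide, as for Atf3 (-1.65 to 0.06).

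Markers of other cell types were read in the same arrays. Among 16 fibroblast markers 1 was lower, Thy1, a surface glycoprotein also made by neurons, at 11.08 and 10.95 against 10.20 and 10.21 (difference -0.81, 95% interval -1.04 to -0.58, adjusted p = 0.016), while Col1a1 (-0.28), Dcn (-0.07) and Pdgfra (-0.14) were not called. The summed fibroblast signal was 113527 to 115038 in control cut and 103454 to 110276 in mutant cut nerve. Of 16 endothelial, 13 mural, 11 perineurial, 10 adipocyte, 11 mast cell, 5 neutrophil and 18 lipid-laden macrophage markers 0 were called. With 1.09% called over all genes, 0 is usual for lists of this size. The endothelial sum was 9843 to 10987 against 10446 to 10559, the mural sum 26767 to 28854 against 30389 to 32159, and the lipid-laden macrophage sum 85639 to 97097 against 93962 to 107126. Of 22 skeletal muscle genes 0 were called and all 22 had positive differences (median 0.20), with a summed signal of 150006 and 183086 on the control cut arrays and 163038 and 232368 on the mutant cut arrays. Of 16 keratin, gland and milk protein genes 0 were called and all 16 had negative differences, with sums of 12684 and 7336 against 3139 and 8003. Schwann cell markers summed to 25525 to 26628 in control cut and 25867 to 27940 in mutant cut nerve, a sum that includes Mbp, which was called higher. Of these 11 markers 7 had negative and 4 positive differences (median -0.12). The part of these cell types in the called genes was not tested. Across the 8 fits that each left out 1 array, Thy1 kept its call in 4, with an adjusted p of up to 0.112 without mutant cut replicate 1. It was 0.187 without both milk protein arrays.

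**Figure D4:**
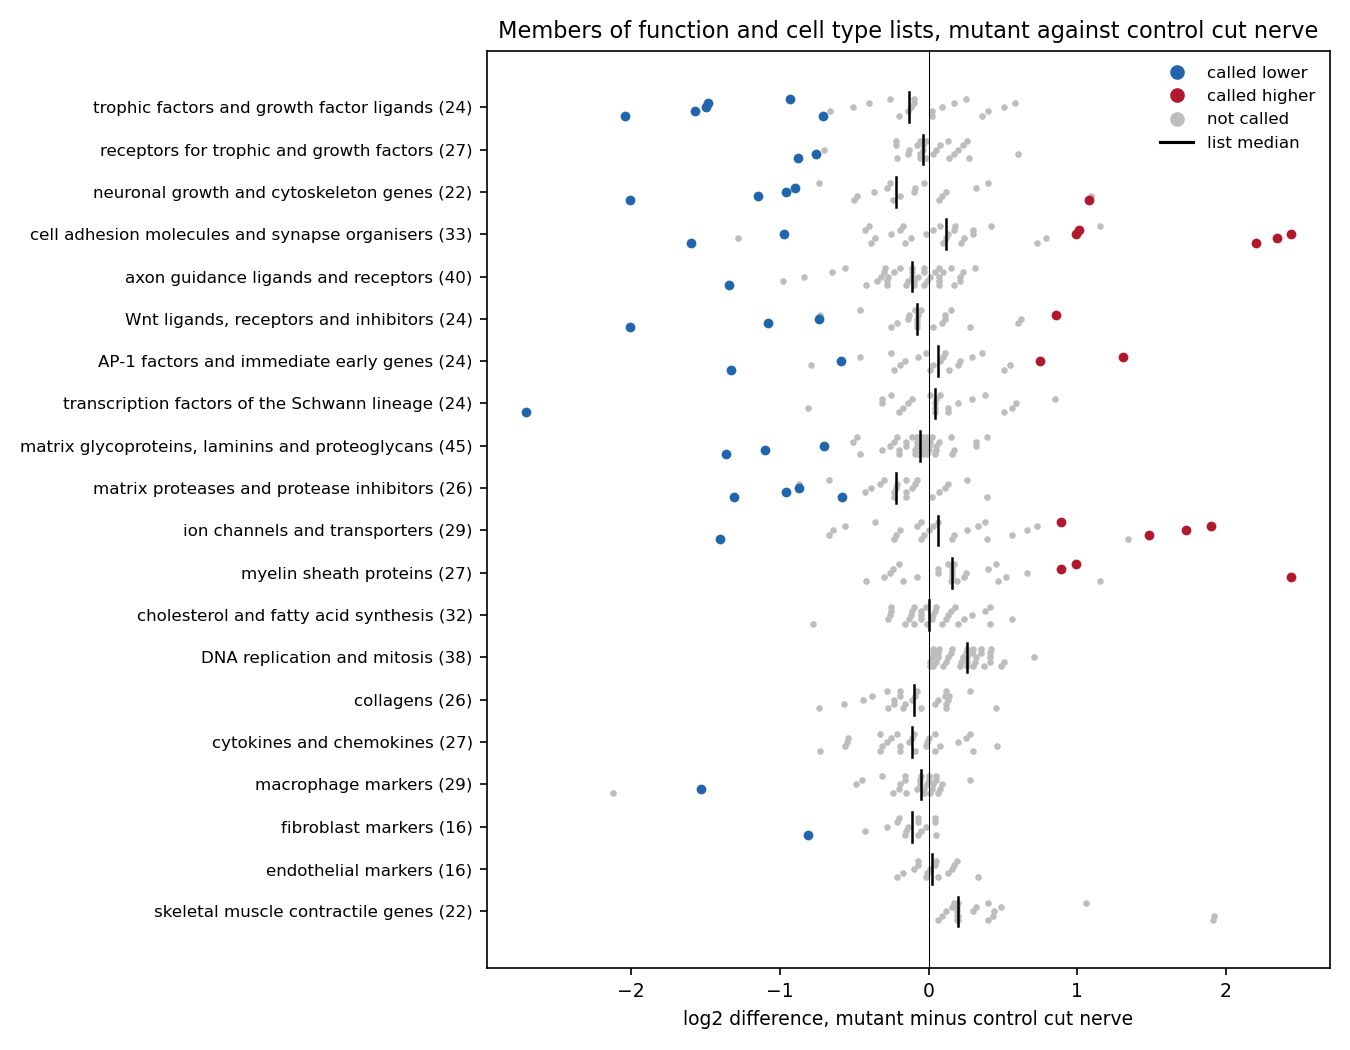
Each point is 1 tested member of a function or cell type list (number tested in brackets), placed by its log2 difference, mutant minus control cut nerve; blue and red points were called lower and higher, grey points were not, and the bar is the list median. Trophic factors hold 6 blue and no red points, myelin proteins 3 red and no blue ones, and all points of DNA replication and of skeletal muscle genes are grey and right of 0.

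The same genes were then read in uncut nerve, whose 4 arrays enter the cut comparison through the shared estimate of the spread and not through its group means. Of the 86 genes lower in cut nerve 84 differed by less than 0.5 between the uncut genotypes (97.7%, median -0.01), and of the 46 higher 43 did (93.5%, median -0.06). Over all genes tested 11955 of 12094 (98.9%) did, so these shares are near or below the background. The 5 that differed by more were Arg1 (0.68) and Adamts1 (0.55), whose sign was opposite, and Fabp7, Aqp5 and Fhdc1 (0.52), whose sign was the same. Fhdc1, a formin family actin regulator, was 6.92 and 6.54 against 7.91 and 8.33 in cut nerve (difference 1.39, 95% interval 1.0 to 1.78, adjusted p = 0.0155). None of the 5 passed in uncut nerve by limma. Over all 12094 genes the genotype differences of cut and of uncut nerve had a Pearson correlation of -0.094 and a Spearman correlation of 0.033, a description across genes, which are not independent replicates. When single arrays were left out, over 8 fits, Fhdc1 kept its call in 6, with an adjusted p of up to 0.0717 without control cut replicate 2. Both milk protein arrays left out, it was 0.031.

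**Figure D5:**
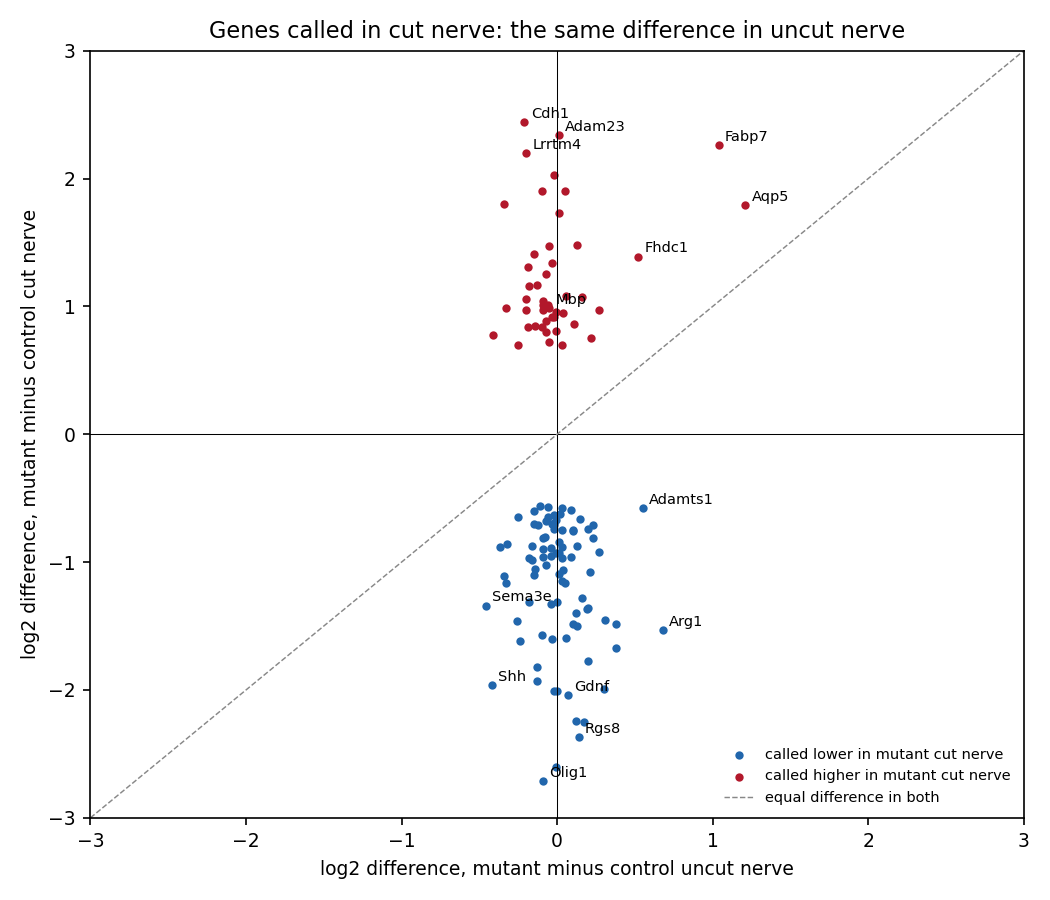
The genotype difference (mutant minus control, log2) in uncut nerve on the horizontal axis and in cut nerve on the vertical axis, for the 132 genes called in cut nerve, with the 86 called lower in blue and the 46 called higher in red. On the horizontal axis 84 blue and 43 red genes lie within 0.5 of 0, and Fabp7 and Aqp5 lie at 1.04 and 1.21.

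Whether the genotype difference depended on injury was tested by the interaction, the difference in cut nerve minus that in uncut nerve. It was called for 20 of 12094 genes (0.165%), 12 (0.0992%) with a negative and 8 (0.0661%) with a positive value. Of these, 18 were also called in cut nerve, which is part of the same contrast and shares its arrays: Rgs8, C1ql2, Arg1, Ucn2, Syt13, Btc, Rgs16, Aldh1a3, Pcdh17 and Adamts1 on the lower side, and Cdh1, Lrrtm4, Adam23, Lrrn3, Kcnj10, Trpm3, Klrb1a and Zdhhc2 on the higher. Olig1 (-2.62, adjusted p = 0.0558), Gdnf (-2.11, adjusted p = 0.0564) and Jun (-1.29, adjusted p = 0.0726) did not pass the interaction, and Shh (-1.54, adjusted p = 0.322) did not either. The count rests on single arrays: it ran from 0 to 23 negative and from 0 to 22 positive calls when 1 array was left out, both highest without mutant cut replicate 2.

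The lower genes differed among themselves in how much of their injury response was seen in mutant nerve. The injury comparisons share the cut arrays with the genotype comparison, so their values are set side by side only. Among 12094 genes, 4879 (40.3%) were called after injury in control nerve and 4348 (36.0%) in mutant nerve. The injury difference of Btc was 4.59 in control and 2.95 in mutant nerve, and that of Wif1 6.43 in control and 5.14 in mutant nerve. For Gap43 it was 2.55 in control and 0.57 in mutant nerve, for C1ql2 2.64 in control and 0.35 in mutant nerve, for Syt13 1.83 in control and 0.18 in mutant nerve and for Uchl1 1.31 in control and 0.13 in mutant nerve, so that in the mutant these 4 stood near their uncut level. Among the higher genes, Cdh1 changed by -5.65 in control and -3.0 in mutant nerve, Plekha4 by -4.11 in control and -2.55 in mutant nerve and Gpr37l1 by -3.77 in control and -1.93 in mutant nerve. Adam23 changed by -1.63 in control and 0.70 in mutant nerve, Kcnj10 by 0.21 in control and 2.21 in mutant nerve and Trpm3 by -0.94 in control and 0.77 in mutant nerve, with a positive value in mutant nerve for all 3.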

How the data were processed

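Whole mouse sciatic nerve segments were profiled on 8 Affymetrix arrays. The deposited values are log2 levels of 45101 probe sets, made by the authors with RMA and affy, per the submitters' processing notes. The sources used here give no versions, detection calls or scan dates, so array batches were not tested. RMA equalises arrays and compresses dim values. Array medians were 6.59 to 6.65, and the number of arrays limits the precision.

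Probe sets were named by the platform annotation, in which 34958 have 1 gene symbol, 932 several and 9211 none; a RefSeq gene table held the gene numbers of 34754 of the first, with 0 changes of symbol. Only probe sets with 1 symbol stood for a gene, and 64 control probe sets were left out. The filter required a level above the array's median on at least 2 arrays, and the probe set of highest mean represented a gene, which left 12094 of 18194 genes. With R 4.3.3 and limma 3.58.1, group means were fitted over all 8 arrays (4 residual degrees of freedom, 3.59 prior degrees of freedom, prior SD 0.124). The model was tested on simulated data. Summed signals are sums of linear levels over a list's tested genes.

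The genes and lists were chosen with earlier results of these data known. Named genes are Jun, the 30 lowest and 30 highest called genes, called list members, the genes the published study names and up to 4 members of a list that did not pass, with ligand or receptor partners; others (Csn2, Ndp, Apc, Zeb1, Sox13, Kcnd3, Nkg7, Nr4a3, the Rgs, retinoid and insulin-like growth factor binding families among them) were picked after their values were seen. Alternatives were other filters, probe set summaries, scalings, weights and variance models, a replicate block, only the 4 cut arrays, and single arrays left out. Replicate numbers were checked for pairing by the correlation of replicate differences between groups (r of 0.023 to 0.34, all positive). Between cut and uncut nerve of the same genotype, which could share mice, r was 0.179 in controls and 0.154 in mutants. The labels name no shared mice, so the main fit took no pairing from the numbers. Promoter sequences are RefSeq's, GRCm38.p6.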

Additional observations from a re-analysis of the deposited data

Results flagged for a closer look

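For 20 genes the genotype difference in cut nerve differed from that in uncut nerve by the interaction test of limma, with Benjamini-Hochberg adjustment over all genes. The interaction value is given first and the differences in cut and uncut nerve follow in brackets. Among genes lower in mutant cut nerve the values were Rgs8 -2.51 (-2.37 and 0.14, adjusted p = 0.0314), C1ql2 -2.29 (-1.99 and 0.30, adjusted p = 0.0365), Arg1 -2.21 (-1.53 and 0.68, adjusted p = 0.0443), Ucn2 -2.05 (-1.67 and 0.38, adjusted p = 0.0365), Syt13 -1.65 (-1.59 and 0.06, adjusted p = 0.0443). They were Btc -1.64 (-1.50 and 0.13, adjusted p = 0.0365), Rgs16 -1.59 (-1.48 and 0.10, adjusted p = 0.0365), Aldh1a3 -1.20 (-1.46 and -0.26, adjusted p = 0.0365), Pcdh17 -1.18 (-0.92 and 0.27, adjusted p = 0.0443) and Adamts1 -1.13 (-0.58 and 0.55, adjusted p = 0.0365) for the rest. Among genes higher in mutant cut nerve they were Cdh1 2.65 (2.44 and -0.21, adjusted p = 0.0365), Lrrtm4 2.40 (2.20 and -0.20, adjusted p = 0.0365), Adam23 2.33 (2.34 and 0.01, adjusted p = 0.037), Lrrn3 2.05 (2.03 and -0.02, adjusted p = 0.0314). For the remainder they were Kcnj10 2.00 (1.90 and -0.10, adjusted p = 0.0443), Trpm3 1.72 (1.73 and 0.01, adjusted p = 0.0314), Klrb1a 1.26 (1.06 and -0.20, adjusted p = 0.0365) and Zdhhc2 1.19 (0.78 and -0.41, adjusted p = 0.0443). The other 2 were not called in cut nerve on their brightest probe set. Clca3a2, which the array annotation places among chloride channel regulators, read 10.74 and 11.04 in control cut, 7.72 and 9.30 in mutant cut, 3.81 and 4.66 in control uncut and 7.35 and 7.68 in mutant uncut nerve, an interaction of -5.66 (differences -2.38 and 3.28, adjusted p = 0.037). Its control uncut mean lies below the 25th percentile of the arrays, so the difference in uncut nerve and the interaction have no firm size. A second probe set of Clca3a2 was 6.96 and 7.39 in control cut and 3.88 and 5.38 in mutant cut nerve. Its difference was -2.55 (adjusted p = 0.0379 by limma with probe sets as units). With the replicate block in limma, the brightest probe set passed in cut nerve (adjusted p = 0.0224). The epithelial keratin Krt8 read 9.18 and 9.92 in control cut, 8.63 and 9.17 in mutant cut, 5.73 and 6.13 in control uncut and 8.54 and 8.48 in mutant uncut nerve, an interaction of -3.24 (differences -0.66 and 2.59, adjusted p = 0.0365). For both genes the mutant uncut arrays, on which Csn2 read 13.01 and 10.33, lay above the control uncut arrays, on which it read 3.50 and 4.14, and the part of that signal in these values was not tested. The counts rested on single arrays: 0 genes were called with a negative interaction without control cut replicate 1, either control uncut array, mutant cut replicate 1 or either mutant uncut array.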

How the results depend on the processing

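In cut nerve the counts of 86 lower and 46 higher genes stayed within 1.5 times under other filters, probe set summaries, scalings, array weights and a trended variance. They fell to 20 and 11 with only the 4 cut arrays, and to 26 and 29 without both milk protein arrays. With an unmoderated statistic they were 0 and 0 (995 genes at an unadjusted p under 0.05). With 1 array left out they ran from 5 to 71 lower and from 8 to 41 higher. Of the 132 genes 43 kept their call without both milk protein arrays, 12 without control cut replicate 1 and 127 under median centring. All kept their sign under every alternative in which they were tested, except Grik3 (-0.07 without a filter on low values, where another probe set is brighter). For the fits with arrays left out the sign was fixed in advance, because the cut arrays of these genes did not overlap between genotypes. Of uncalled genes named, L1cam ran from -0.30 to 0.06 with 1 array left out (0.06 without control cut replicate 1) and was 0.13 without both milk protein arrays. Ighm (-0.18) was 1.25 without both milk protein arrays. Ncam1 ran from -0.05 (without control cut replicate 2) to 0.50. The cause was not tested.

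The difference of Jun (-1.33) did not pass with only the 4 cut arrays (-1.33) or with no moderation (-1.33), and ran from -1.53 to -1.12 with 1 array left out. In uncut nerve, 1 gene was called higher with the mean of probe sets or with probe sets as units, 4 with the replicate block and 9 without both milk protein arrays; with 1 array left out 0 to 2 were called lower and 0 to 2 higher. The interaction counts (12 negative, 8 positive) moved to 22 negative without the filter, 7 and 4 with a filter at the 75th percentile, 21 negative with the mean of probe sets, 20 negative under median centring, 19 negative with a trended variance and 0 and 0 with no moderation. With 1 array left out they ran from 0 to 23 and from 0 to 22.

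The labels do not say whether same-numbered pools of cut and uncut nerve come from the same mice, so the replicate number was tried as a block: it called 118 lower and 56 higher genes in cut nerve and kept 128 of the 132, and it called 17 negative and 8 positive interactions.

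Only 2 arrays a group, pooled animals and no detection calls limit all of these values. Olig1, Gdnf, Asgr1, Slitrk6, Fgf5, Gria1 and Wif1 in uncut nerve, Ucn2 and Clca3a2 in control uncut nerve and Lrrtm4 and Scn8a in control cut nerve had group means below the 25th percentile of the arrays (4.95 to 5.01), so differences against those levels have no firm size.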
